A study of Xenopus laevis with 8 samples.

Results

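The genes described here encode guidance cues of the developing nervous system and their receptors: the Eph receptors and ephrins, the semaphorins with plexins and neuropilins, the netrins with *dcc* and *unc5*, and the slits with robos. They were taken from the array by symbol alone. This rule uses no levels, but members and lists were chosen with earlier results of these data known. With the ending of the homoeologous copy (.L, .S, -a or -b) removed, a symbol had to begin with an Eph, ephrin, semaphorin, plexin, robo, slit, netrin or *unc5* name or be *nrp1*, *nrp2* or *dcc*. This gave 27 of the 6485 genes named on the array, read by 37 of 15491 probe sets for 29 homoeologs. A total of 14 probe sets belong to Eph and ephrin genes, which are treated apart.

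RNA was taken from explants of *Xenopus laevis* ectoderm called animal caps, which are cut from the blastula while still pluripotent, after they had grown to the equivalent of stage 15. EFTF caps carried injected RNA for the eye field transcription factors *pax6*, *tbx3*, *rx1* (*rax*), *nr2e1*, *six3* and *six6* together with *otx2*. GFP caps carried RNA for a fluorescent protein alone, which the labels call GFP. By the methods of the study all embryos were transgenic for Venus YFP and all, EFTF ones included, received RNA for it, and several caps were pooled for each array. RNA was injected into both cells after the first cleavage. There were 4 EFTF and 4 GFP arrays, called biological replicates in the series but described in the methods as triplicates from different days and females, so the p-values measure the spread between these arrays.

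Eph receptors are tyrosine kinases that bind ephrins on neighbouring cells, and the signal can run into both cells. In embryos this contact signalling keeps cell groups apart and guides axons. In *Xenopus*, ephrin-B1 acts in the movement of retinal progenitors into the eye field, where FGF receptor activity modulates it, and in zebrafish Eph and ephrin genes hold eye field and forebrain cells apart. Semaphorins signal through plexins and neuropilins, netrins through DCC and UNC5, and slits through Robo receptors.

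Levels are log2 RMA intensities, and every difference is EFTF minus GFP on that scale. Background was set on each array by the brightest of 17 tag controls, at 2.90 to 3.18, and 72.4% to 83.4% of probe sets exceeded it. *six6.L*, a gene of the injected mixture, read 7.54 to 9.00 on the EFTF arrays and 3.45 to 4.68 on the GFP arrays, and whether its probe set reads the injected RNA or the cells' own is not stated. GFP replicate 1, whose source label says EFTF although its title says GFP, was at 4.68, the highest GFP value, and at this gene lay with the GFP arrays. Over all probe sets it correlated at 0.983 with EFTF replicate 1. With GFP replicates 2, 3 and 4 it correlated at 0.977, 0.977 and 0.961, and with EFTF replicates 2, 3 and 4 at 0.958, 0.929 and 0.915. It was grouped by its title. Without GFP replicate 1 limma called 121 probe sets of the array in place of 220, and 0 members. Same-numbered EFTF and GFP arrays deviated from their group means together, least so for replicate 3, so values are also given pair by pair.

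In the caps, 4 of the 5 Eph receptor genes on the array had higher mean levels with the EFTFs. The differences were 1.00 to 1.75 on the log2 scale for *epha2.L*, *ephb3* and *ephb4.L*. For *epha4.L* they were 0.87 at the S1_at probe set and 2.17 at the A1_at probe set, where 3 of 4 GFP arrays were not above background. The 6 ephrin genes had mean differences from -0.62 to 0.15 at the probe sets that list a single symbol. None of these receptor differences passed the unpaired test. Across all 37 probe sets limma (Benjamini-Hochberg over 15491 probe sets) called 0, where it called 1.42% of the whole array (0.762% higher and 0.658% lower). At an unadjusted p under 0.05 there were 7 members, 6 higher and 1 lower, or 18.9% against 17.3% of all probe sets (9.3% higher and 7.98% lower), and the methods' t-test called 0 after adjustment. With the replicate number as a block limma called 3 members, 2 higher and 1 lower, all of them Eph or ephrin genes. That is 8.11% of the members, against 10.2% of the array in the same fit, where 4.91% were higher. The mean was higher in EFTF caps for 19 of the 37, beside 54.1% of all probe sets.

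Of the 8 receptor probe sets, 5 were at least 2-fold higher on average in EFTF caps, beside 2.76% of all probe sets, and 4 had all 4 EFTF arrays above all 4 GFP arrays, beside 5.42%. Among the 5 were *epha4.L* at its A1_at probe set, with a GFP mean below background, and *ephb4.L*, which at 1.00 only just reached the limit. With array medians made equal *ephb4.L* was at 0.93. The median difference of the 8 probe sets was 1.28, against 0.023 over the array. The 8 probe sets stand for 5 genes, 2 of which have a pair of probe sets from 1 homoeolog and 1 of which has both homoeologs, so they are not independent measurements. In bulk RNA, more cells that express a gene and more RNA per cell cannot be told apart.

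*epha4.L*, an A-class receptor known from the *Xenopus* hindbrain and neural crest, was read by 2 probe sets. The probe set ending in A1_at read 3.67, 5.23, 6.19 and 4.55 in EFTF caps and 2.68, 2.66, 2.50 and 3.11 in GFP caps. All EFTF arrays lay above background and above every GFP array, and only GFP replicate 4 was above background among the controls. The measured difference was 2.17 ± 0.48 (SE, n = 4 each), with a limma adjusted p of 0.0662 that was 0.0392 with the replicate block. Since the GFP mean of 2.74 lay below the background limit of every array, no fold is given. Without EFTF replicate 1, the array with the lowest EFTF value, the unpaired adjusted p was 0.0168, in a fit that called 4.53% of the array. Without any other single array it was 0.101 to 0.183. The probe set ending in S1_at read 4.26, 4.24, 5.92 and 4.04 in EFTF caps and 3.69, 3.63, 3.74 and 3.91 in GFP caps. Its groups did not overlap either, but EFTF replicate 3 stood far above the other EFTF arrays and the rest lay within 1 log2 unit of the controls. The difference at this probe set was 0.87 ± 0.39 (adjusted p = 0.297, blocked adjusted p = 0.157). EFTF replicate 3 gave the highest level at both probe sets.

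*ephb3*, a B-class receptor gene, was read from both homoeologs. *ephb3.S* had 4.47, 4.43, 5.75 and 6.33 in EFTF caps and 3.51, 3.37, 3.35 and 3.98 in GFP caps. The groups did not overlap, and EFTF replicates 3 and 4 lay above EFTF replicates 1 and 2. It differed by 1.69 ± 0.43 (SE, n = 4 each), or 3.23-fold, with an adjusted p of 0.0918. The adjusted p was 0.0307 with the replicate block and 0.0372 with replicate 4 as a batch term, fits that called 10.2% and 4.87% of the array. The batch term was a choice made here, as the sample titles number the arrays and name no batch. In the unpaired fit the adjusted p of *ephb3.S* was 0.0505 to 0.249 without single arrays and 0.141 within replicates 1 to 3. *ephb3.L* had 4.55, 4.89, 6.17 and 6.13 in EFTF caps and 4.00, 3.76, 3.06 and 4.68 in GFP caps. EFTF replicate 1 lay below GFP replicate 4 here, and the groups overlapped by that array. The difference was 1.56 ± 0.46, or 2.95-fold (adjusted p = 0.135, blocked adjusted p = 0.0646). The sources do not say whether each probe set reads its own homoeolog alone.

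*ephb4.L*, a receptor best known from veins, was at 5.44, 5.45, 6.14 and 5.81 in EFTF caps and 5.31, 4.65, 4.46 and 4.42 in GFP caps. Its EFTF values were the most alike among the receptors with a 2-fold difference, and they were all above the GFP values, though GFP replicate 1 came within 0.13 of EFTF replicate 1. The difference was 1.00 ± 0.24 (SE, n = 4 each), or 2.00-fold (adjusted p = 0.0808, blocked adjusted p = 0.0672). *epha2.L*, an A-class receptor expressed in the hindbrain of the mouse embryo, was at 4.30, 4.79, 6.15 and 7.69 in EFTF caps and 3.93, 3.64, 3.69 and 4.66 in GFP caps. The spread among EFTF arrays was wide (SD 1.52), and EFTF replicate 1 lay below GFP replicate 4. *epha2.L* differed by 1.75 ± 0.69 (adjusted p = 0.24, blocked adjusted p = 0.0622), with an interval from 0.18 to 3.32.

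**Figure D1:**
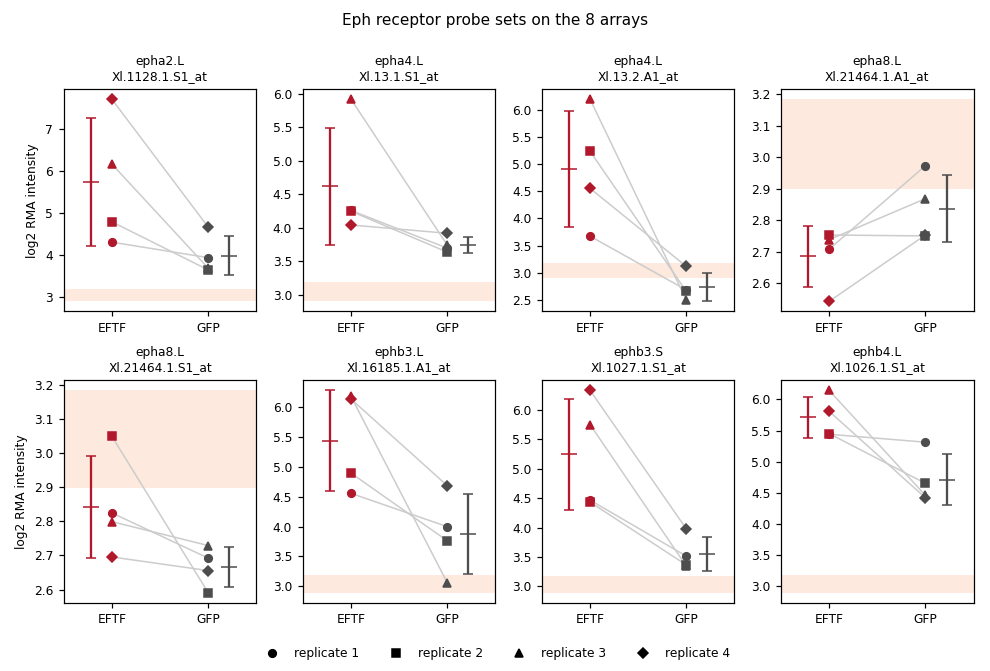
Log2 RMA intensity (vertical axes, each with its own scale) of the 8 Eph receptor probe sets on the 4 EFTF arrays (left, red) and 4 GFP arrays (right, grey), with symbols for replicate numbers, grey lines between same-numbered arrays, bars for the mean and SD, and a shaded band for the background limits of 2.90 to 3.18. For the 6 probe sets other than *epha8.L* every line slopes down toward GFP, and both *epha8.L* probe sets lie at background.

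The fifth receptor gene, *epha8.L*, was at background. The S1_at probe set was above it on 0 of 8 arrays and the A1_at probe set on 0 EFTF arrays and 1 GFP array, so no level is given for the gene. These probe sets carry the same source sequence, and their names differ in the letter for its orientation. The sources do not say which strand each reads. The S1_at probe set differed by 0.18 ± 0.11 (adjusted p = 0.475). The A1_at probe set differed by -0.15 ± 0.10 (adjusted p = 0.532).

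Pair by pair, the 6 receptor probe sets other than those of *epha8.L* were higher in the EFTF array of all 4 pairs. With the S1_at probe set of *epha8.L*, which was not above background on any array, this made 7 of 8, beside 19.0% of all probe sets. The A1_at probe set of *epha8.L* was higher in the EFTF array of only 1 pair. The sizes differed between pairs. In pair 1 the 6 differences were 0.37, 0.56, 0.99, 0.56, 0.95 and 0.13 for *epha2.L*, *epha4.L* (S1_at, then A1_at), *ephb3.L*, *ephb3.S* and *ephb4.L*. In pair 3 they were 2.47, 2.18, 3.69, 3.11, 2.40 and 1.69 in the same order. EFTF replicate 1 was the lowest EFTF array for 4 of these 6 probe sets, EFTF replicate 3 the highest for 4 and EFTF replicate 4 for 2. GFP replicate 4 was the highest GFP array for 5 of them.

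Markers of other cell types moved between the groups and between the EFTF arrays. The neural list (*sox2*, *sox3*, *ncam1*, *msi1*, *cdh2* and *zic1*, with *otx2* and *rax*, whose RNAs were in the injected mixture) had 10 of 14 homoeologs called higher, and its mean level was 6.57, 7.08, 8.05 and 7.74 on EFTF arrays 1 to 4 and 4.34 to 5.09 on GFP arrays. EFTF replicate 1 was thus lowest and EFTF replicate 3 highest in this list too. The paper states that its *otx2* and *rax* probe sets miss the injected RNA and read the cells' own. Whether all the probe sets averaged here are among those is not shown. The cement gland list averaged 9.96 to 10.8 on EFTF and 7.04 to 7.61 on GFP arrays, with 5 of 5 called higher. Of 7 genes listed for multiciliated cells and ionocytes, 4 were measured: *foxi1*, *atp6v1a*, *ca12* and *ubp1*. The multiciliated cell genes *foxj1*, *mcidas* and *tuba1a* were not, so no level is given for that cell type. The 4 averaged 4.47 to 6.34 on EFTF and 6.83 to 7.23 on GFP arrays, with 2 of 4 called lower (*foxi1.L* and *ubp1.L*). Epidermis markers averaged 8.68 to 9.34 on EFTF and 9.31 to 9.45 on GFP arrays, and 13 of 14 were above background on all arrays. Ectoderm, the tissue of the animal caps that the labels name, was thus present in both groups. Neural crest markers averaged 3.13 to 3.34 on EFTF and 3.05 to 3.26 on GFP arrays, with 1 of 7 above background on all arrays. Mesoderm markers averaged 2.90 to 2.96 on EFTF and 2.79 to 2.97 on GFP arrays, with 0 of 8 above background on all arrays, and endoderm markers averaged 3.03 to 3.18 on EFTF and 3.11 to 3.34 on GFP arrays. The part of neural and other markers in the receptor differences was not tested.

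The ephrins, the membrane-bound ligands, had 6 probe sets. Of these 0 had groups that did not overlap, beside 10.2% of the array (4.75% lower), 0 were at least 2-fold higher or lower (3.84% of the array was lower by that much), and the median difference was -0.076. *efna1.L*, a lipid-anchored A-class ligand, read 7.22, 7.37, 7.07 and 6.51 in EFTF caps and 7.78, 8.20, 7.63 and 7.02 in GFP caps. Every EFTF array was below the GFP array of its number, while GFP replicate 4 lay below EFTF replicates 1 to 3, so that the groups overlapped. *efna1.L* differed by -0.62 ± 0.28 (SE, n = 4 each), with pair differences of -0.56, -0.84, -0.56 and -0.51. It was not called in the unpaired fit (adjusted p = 0.301) and was called lower with the replicate block (adjusted p = 0.0285), where 5.25% of all probe sets were called lower.

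*efna4.L*, another A-class ligand, was at 8.83, 8.92, 8.78 and 9.90 in EFTF caps and 8.91, 9.21, 9.44 and 9.89 in GFP caps. Both replicate 4 arrays were the highest of their groups, and the groups overlapped. It differed by -0.25 ± 0.30 (adjusted p = 0.762), with an interval from -0.94 to 0.43. *efna3.L*, also A-class, had 3.07 to 3.14 in EFTF caps and 3.14 to 3.45 in GFP caps, close to background. It differed by -0.13 ± 0.10 (adjusted p = 0.604).

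*efnb1.L*, the transmembrane ligand with the known role in eye field movement, was at 3.72, 4.43, 3.72 and 3.97 in EFTF caps and 3.61, 3.94, 4.00 and 3.67 in GFP caps. It was above background on all 8 arrays, and the values of the groups were interleaved. The difference was 0.15 ± 0.18 (adjusted p = 0.768), with an interval from -0.27 to 0.57. An increase of more than 1.49-fold in measured intensity lay outside it, but RMA can compress differences at levels this dim. *efnb3.L* differed by -0.021 ± 0.13 (adjusted p = 0.965), and *efnb2.S* by 0.050 ± 0.10 (adjusted p = 0.875). *efnb2.S* exceeded background on 2 EFTF arrays and on 0 GFP arrays. These *efnb3.L* and *efnb2.S* probe sets read close to background, where RMA compresses differences. A brighter probe set that lists both homoeologs of *efnb2* was left out of all counts. It differed by 0.42 ± 0.16 (limma adjusted p = 0.244), and its groups did not overlap. Whether receptors and ligands differ in their response was not tested.

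**Figure D2:**
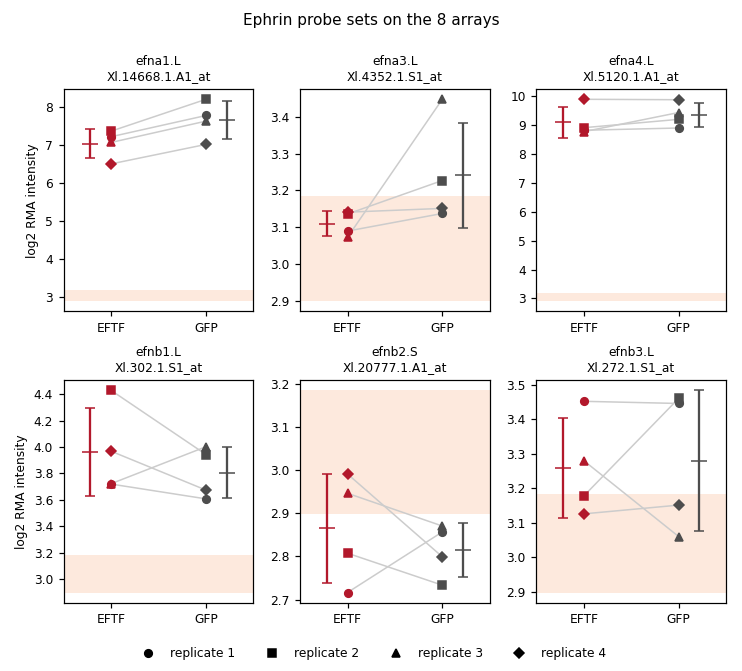
Log2 RMA intensity (vertical axes, each with its own scale) of the 6 ephrin probe sets on the 4 EFTF arrays (left, red) and 4 GFP arrays (right, grey), with symbols for replicate numbers, grey lines between same-numbered arrays, bars for the mean and SD, and a shaded band for the background limits. The 4 lines of *efna1.L* all rise toward GFP, and the other ligands have lines in both directions or values close to the band.

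**Figure D3:**
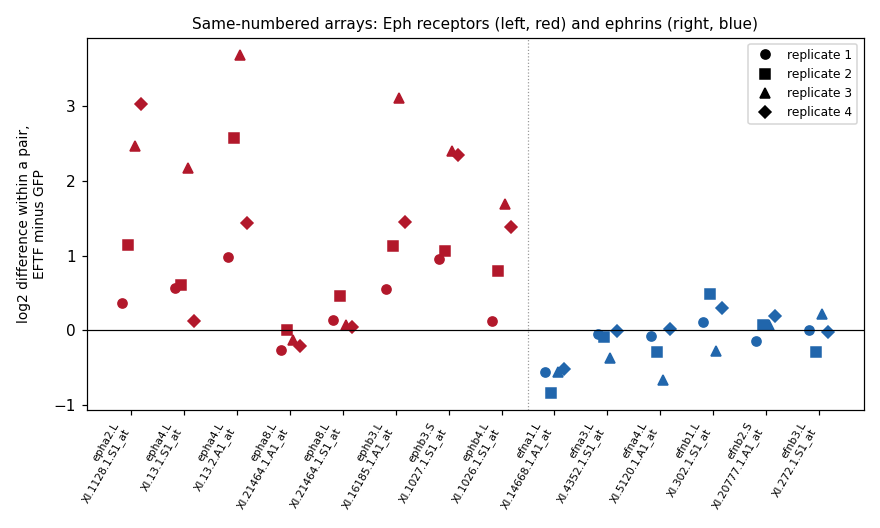
Log2 difference between the EFTF and the GFP array of the same number (vertical axis) for each Eph receptor probe set (left, red) and ephrin probe set (right, blue), with a symbol for each of the 4 replicate numbers. Receptor points other than those of *epha8.L* lie between 0.12 and 3.69, and ephrin points between -0.84 and 0.49.

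The semaphorins, plexins and neuropilins had 8 probe sets, of which 0 were called in either fit (1.42% of the array unpaired and 10.2% with the block) and 0 had groups that did not overlap (10.2% of the array). At these shares a count of 0 among so few probe sets says little. Their differences ran from -0.37 to 0.59 with a median of -0.056. *sema3a.L*, a secreted repellent of axons that binds neuropilin-1, came closest. It had 3.69, 4.13, 3.66 and 2.97 in EFTF caps and 3.02, 3.16, 3.22 and 2.70 in GFP caps. EFTF replicates 1 to 3 were above every GFP array, replicate 4 was the lowest of both groups, and all 4 pairs were higher in the EFTF array. *sema3a.L* differed by 0.59 ± 0.24 (SE, n = 4 each, adjusted p = 0.258, blocked adjusted p = 0.0531).

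*nrp1.L*, which encodes the neuropilin that binds this semaphorin, was at 4.15, 4.43, 4.49 and 4.18 in EFTF caps and 4.52, 4.25, 4.42 and 4.28 in GFP caps, with the groups mixed. It differed by -0.056 ± 0.12 (adjusted p = 0.888). The plexin gene *plxnb2.S*, a receptor for class 4 semaphorins, had a difference of -0.21 ± 0.13 (adjusted p = 0.50). For *plxna1.L*, a partner of neuropilins, it was -0.085 ± 0.22 (adjusted p = 0.903). *sema6d.L*, a transmembrane semaphorin, read 4.47, 5.23, 5.04 and 5.34 in EFTF caps and 4.75, 5.60, 5.97 and 5.24 in GFP caps and differed by -0.37 ± 0.29 (adjusted p = 0.601). The secreted *sema3c.S* had a difference of -0.057 ± 0.12 and *sema3fl.S* one of 0.00011 ± 0.099, neither called, and *sema4c.L* was at background on all 8 arrays. *sema3c.S* was above background on only 2 EFTF and 3 GFP arrays.

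The netrin system was close to background. Of 8 probe sets for *ntn1.L*, *ntn5.L*, *dcc.L*, *dcc.S* and *unc5b.L*, 1 was above background on all 8 arrays and 2 on none. The 1 was *unc5b.L*, encoding a repulsive netrin receptor, at 3.59, 3.20, 3.34 and 3.62 in EFTF caps and 3.79, 3.22, 3.91 and 3.82 in GFP caps. Its EFTF arrays were below the GFP arrays of their number in all 4 pairs, and by only 0.019 in pair 2. It differed by -0.25 ± 0.18 (adjusted p = 0.568, blocked adjusted p = 0.257), and the second *unc5b.L* probe set by -0.14 ± 0.13 (adjusted p = 0.693). For the attractive receptor gene *dcc*, read by 2 orientations of a *dcc.S* sequence and 1 *dcc.L* probe set, and for *ntn1.L*, read in 2 orientations, adjusted p-values lay between 0.58 and 0.977. Differences in such dim transcripts would be detectable only if large.

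The slits and robos had 7 probe sets with differences from -0.63 to 0.55, of which 0 were called in either fit, beside 1.42% of the array unpaired and 10.2% with the block. *slit2.S*, a secreted midline repellent, was at 5.26, 5.59, 5.04 and 4.57 in EFTF caps and 5.38, 6.24, 5.53 and 5.81 in GFP caps. All 4 EFTF arrays were below the GFP arrays of their number, by 0.12, 0.64, 0.49 and 1.24 in the order of the replicates, and the groups overlapped. *slit2.S* differed by -0.63 ± 0.26 (SE, n = 4 each, adjusted p = 0.259, blocked adjusted p = 0.092). *robo3.S*, an atypical Robo receptor gene, had 3.71, 4.13, 4.53 and 4.37 in EFTF caps and 3.38, 3.31, 3.58 and 4.26 in GFP caps at its brighter probe set. Only GFP replicate 4 reached into the EFTF range, and the difference was 0.55 ± 0.25 (adjusted p = 0.318, blocked adjusted p = 0.0949). Its second probe set, above background on 2 EFTF and 0 GFP arrays, differed by 0.11 ± 0.13 (adjusted p = 0.75). *robo1.L*, the receptor gene best known from commissural axons, differed by -0.076 ± 0.12 (adjusted p = 0.837).

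*slit1.S* was read by 3 probe sets that disagreed. The A1_s_at and A1_x_at probe sets, which share 1 source sequence and whose endings mark possible matches to other transcripts, differed by 0.48 ± 0.41 and 0.49 ± 0.37, with EFTF replicate 1 at 4.83 and 5.10. The other EFTF arrays read 2.95 to 3.16 and 3.35 to 3.70 there. The S1_at probe set differed by -0.21 ± 0.13 (adjusted p = 0.466) and had EFTF replicate 1 at 3.07. This probe set was above background on 2 EFTF and 4 GFP arrays, and the A1_s_at probe set on 3 EFTF and 2 GFP arrays.

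**Figure D4:**
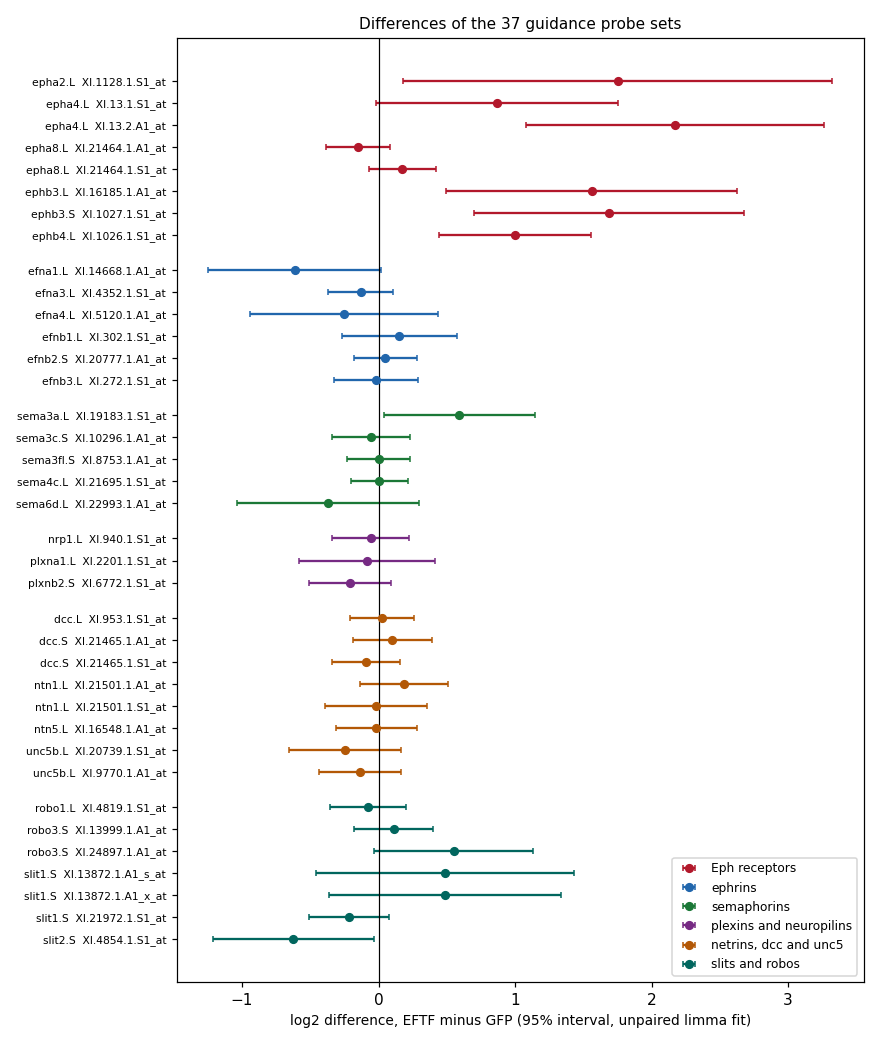
Log2 difference, EFTF minus GFP, of the 37 probe sets (horizontal axis), with points for the difference and bars for its 95% interval in the unpaired limma fit, coloured by family. The 6 receptor probe sets other than *epha8.L* sit between 0.87 and 2.17, and the remaining members between -0.63 and 0.59.

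The partners of these pathways were examined as a list of surface proteins and transducers. Of 80 listed genes 43 were measured, by 80 probe sets, and limma called 2 of these, both higher, or 2.5% beside 1.42% of the array. *fgfr1.L*, the FGF receptor gene known to modulate ephrin-B1 in *Xenopus*, had 5.66, 6.57, 6.89 and 6.93 in EFTF caps and 4.44, 3.71, 3.61 and 5.08 in GFP caps. *dpysl3.S*, which encodes a CRMP protein of the family that carries semaphorin signals to microtubules, had 4.25, 5.51, 5.75 and 5.25 in EFTF caps and 3.39, 3.37, 3.39 and 2.92 in GFP caps. The groups did not overlap for either gene, and EFTF replicate 1 was the lowest EFTF array for both. *fgfr1.L* rose by 2.30 ± 0.40 (SE, n = 4 each, adjusted p = 0.0381) and *dpysl3.S* by 1.92 ± 0.31 (adjusted p = 0.0332). The call of *fgfr1.L* was lost without any 1 array other than EFTF replicate 1 and GFP replicate 4, at adjusted p from 0.0664 to 0.123, and that of *dpysl3.S* without any 1 array other than EFTF replicate 1, at adjusted p from 0.0616 to 0.111.

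With the replicate block 6 partner probe sets were called, 5 higher and 1 lower, or 7.5% beside 10.2% of the array. Those beyond the 2 above, named after their values were seen, were 1 of 2 probe sets of *dpysl3.L* (1.79 ± 0.50, adjusted p = 0.115, blocked adjusted p = 0.0454), *src.L*, which encodes a kinase downstream of ephrin-B and whose homoeolog *src.S* was not called (0.95 ± 0.38, adjusted p = 0.246, blocked adjusted p = 0.0278), *rgma.L*, a ligand of neogenin (0.82 ± 0.34, adjusted p = 0.259, blocked adjusted p = 0.042) and *dvl3.L*, a Dishevelled gene (-0.59 ± 0.51, adjusted p = 0.643, blocked adjusted p = 0.0308). The second *dpysl3.L* probe set, of the same source sequence, differed by 1.60 ± 0.52 and was not called (adjusted p = 0.163, blocked adjusted p = 0.0764). The homoeolog *src.S* differed in the other direction, by -0.29 ± 0.32 at its brighter probe set (adjusted p = 0.742). At its dimmer one it differed by -0.017 ± 0.12 (adjusted p = 0.968). *dvl3.L* was lower in all 4 EFTF arrays of a pair by 0.46 to 0.80 while its level ranged over more than 1 log2 unit within each group. *fyn.S*, a Src family kinase gene of the same pathway, also chosen after its values were seen, had 3.75, 5.64, 6.44 and 3.96 in EFTF caps and 3.09, 2.86, 2.77 and 3.08 in GFP caps. Its groups did not overlap, EFTF replicates 2 and 3 were far above the other EFTF arrays, and the measured difference was 2.00 ± 0.57 (adjusted p = 0.122, blocked adjusted p = 0.069), with 2 of 4 GFP arrays not above background. The homoeolog *fyn.L* differed by 0.28 ± 0.10 (adjusted p = 0.209) and was above background on 3 EFTF arrays and 1 GFP array. The median over all partner probe sets was 0.041, against 0.023 over the array.

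**Figure D5:**
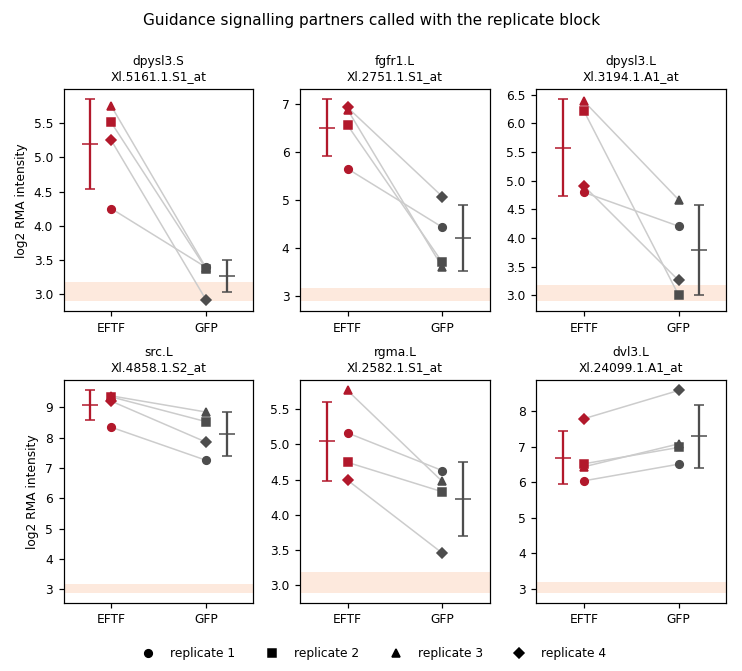
Log2 RMA intensity (vertical axes, each with its own scale) of the 6 partner probe sets called with the replicate block on the 4 EFTF arrays (left, red) and 4 GFP arrays (right, grey), with symbols for replicate numbers, grey lines between same-numbered arrays, bars for the mean and SD, and a shaded band for the background limits. The groups of *dpysl3.S*, *fgfr1.L* and *dpysl3.L* do not overlap, those of the other 3 do, and the lines of *dvl3.L* are the only ones that rise toward GFP.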

How the data were processed

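RNA of each sample was hybridised to an Affymetrix *X. laevis* array. The authors preprocessed the scans with RMA, version not given, and the deposited values are intensity on a linear scale. Their methods add a scaling in GeneSpring to control caps or whole embryos, and whether these values hold it is not stated. Here log2 was taken without a pseudocount or further normalization. Of 15611 probe sets, 120 controls were left out. The array annotation gave 1 symbol for 9304 of the other 15491, several for 195 and none for 5992, and only the first kind was named. By gene ID 35 of the 37 members matched a RefSeq table (Xenopus_laevis_v10.1), with no symbol changed. Sequences and genome coordinates were not used here.

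Groups and replicate numbers came from sample titles. The unpaired test was limma 3.58.1 (lmFit, eBayes) under R 4.3.3, without covariates and two-sided, and p-values were adjusted by Benjamini-Hochberg over 15491 probe sets at a threshold of 0.05. Intervals are at 95%. The scripts were tested on simulated data. Deviations of same-numbered EFTF and GFP arrays from their group means correlated at 0.44, 0.60, 0.22 and 0.64 across probe sets, so the numbers were taken to pair the arrays. This rests on the values alone, as no label gives a pairing. Arrays of different numbers correlated at -0.45 to 0.28. GFP replicate 3 correlated more with EFTF replicate 2 (0.28) than with EFTF replicate 3 (0.22), so pair 3 is the least certain. The number of arrays limits the precision (median SE of a difference 0.18). By rule, all Eph and ephrin probe sets were named, with those other members that were called or had non-overlapping groups, the brightest and the most different probe set of each family, and the partners called in the unpaired fit. Other members are given for completeness and were chosen after their values were seen. Alternatives changed the scaling, filter, pseudocount, variance model, block, batch, test and arrays used. Members and lists were chosen with earlier results of these data known.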

Additional observations from a re-analysis of the deposited data

Results flagged for a closer look

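In 7 of 78 groups of 4 arrays (37 member probe sets and the 2 called partners, each in both groups), 1 array stood apart by Dixon's test, which chance gives in about 5% of groups. *epha4.L* at its S1_at probe set read 5.92 in EFTF replicate 3, against 4.04 to 4.26 on the other EFTF arrays. *slit1.S* at its A1_s_at probe set read 4.83 in EFTF replicate 1, against 2.95 to 3.16 on the others. *efna4.L* read 9.90 in EFTF replicate 4, against 8.78 to 8.92 on the others. *plxna1.L* read 4.82 in GFP replicate 4, against 3.86 to 3.95 on the other GFP arrays. *dpysl3.S* read 2.92 in GFP replicate 4, against 3.37 to 3.39 on the others. For *sema4c.L*, at 2.56 in EFTF replicate 4, and *dcc.L*, at 3.02 in EFTF replicate 3, the levels were near background and the gaps small.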

How the results depend on the processing

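A total of 16 alternatives were run on the unpaired fit. Against 220 calls over all probe sets, the replicate block gave 1575 and a batch term for replicate 4 gave 754. There were 315 (2.03% of the array) with trended and robust variances and 92 with a pseudocount of 16. There were 18 within replicates 1 to 3 and 2 by the unpaired equal-variance t-test (2250 at an unadjusted p under 0.05). The count ran from 25 to 702 without single arrays. Non-overlapping groups, counted after seeing the data, numbered 1575. With array medians made equal the split was 124 higher and 170 lower, against 118 and 102. Calls among Eph and ephrin probe sets, 0 in the unpaired fit, were 3 under that block, 1 with trended and robust variances (*epha4.L*), 1 under the batch term (*ephb3.S*), and 0 to 1 without single arrays, the 1 being *epha4.L* without EFTF replicate 1. The count without GFP replicate 1 was 0. Semaphorin and netrin or slit families had 0 calls in all settings. Partner calls, 2 in the unpaired fit, were 6 with the replicate block, 0 with the pseudocount, 0 within replicates 1 to 3, 0 by the equal-variance t-test and 0 to 3 without single arrays. The cause was not tested. Over all 37 members, 12 changed sign in at least 1 alternative, 0 of them Eph receptors, and the other 25 did not. The 12 had differences of at most 0.153 in size in the unpaired fit. Equal medians moved every difference by -0.068, and that of *sema3fl.S*, *sema4c.L* and *dcc.L* turned negative, as did the partners' median (-0.027). Within replicates 1 to 3 the netrin and slit median was 0.014 and the semaphorin and plexin median 0.0029, against -0.016 and -0.056 in the unpaired fit. Among the ephrins *efnb2.S* was at -0.018 with equal medians, and without single arrays *efnb3.L* ran from -0.094 to 0.040 and *efnb1.L* from -0.0033 to 0.23. Among other members, signal over background limits *epha8.L*, *efna3.L*, *efnb2.S*, *efnb3.L*, *dcc*, *ntn1.L*, *ntn5.L*, *sema3c.S* and *sema4c.L*. It also limits probe sets of *epha4.L*, *unc5b.L*, *slit1.S* and *robo3.S*.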

Other observations

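A further probe set lists both homoeologs of *efnb2* and was left out of all counts. It read 5.45, 5.73, 5.66 and 6.21 in EFTF caps and 5.42, 5.23, 5.28 and 5.44 in GFP caps. Its groups did not overlap, by 0.011 between EFTF replicate 1 and GFP replicate 4, and it differed by 0.42 ± 0.16 (limma adjusted p = 0.244, blocked adjusted p = 0.119).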
